A study of Mus musculus with 8 samples.

Results

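The S100 genes encode small calcium-binding proteins, and 10 of them expressed in mouse epidermis are described here: S100a3, S100a4, S100a6, S100a8, S100a9, S100a10, S100a11, S100a13, S100a14 and S100a16. They were chosen by name as members of the family, with earlier results of these data known, and are 10 of the 15995 genes in the deposited table. RNA was sequenced from epidermis peeled off the skin of newborn C57BL/6J mice, an inbred black laboratory strain, after an overnight incubation in cold trypsin-EDTA. The 4 knockout libraries came from ZFP750-/- mice, which lack the zinc finger protein Zfp750 of differentiating keratinocytes, and the 4 wild-type libraries from WT mice of the same strain. The labels do not say how the allele was made, whether the loss was limited to the skin, which sex the pups had, or whether littermates were used. Libraries are called knockout 1 to 4 and wild type 1 to 4. Nothing says that they came from separate litters or were not pooled, so p-values measure the spread between these libraries.

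An S100 protein is usually a dimer whose subunits each bind calcium through a pair of helix-loop-helix motifs called EF hands, and calcium exposes a surface that grips a partner protein. Annexins, receptors and enzymes are known partners. Most S100 genes lie in the epidermal differentiation complex, a gene cluster that also holds the genes for loricrin, involucrin and filaggrin. S100a8 and S100a9 form the heterodimer calprotectin, which is abundant in neutrophils and is made by keratinocytes in wounded or inflamed skin, where it binds metal ions and signals to immune cells.

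Values are FPKM, the authors' fragments per kilobase of transcript and per fixed number of mapped fragments, which can be compared between genes. Genes were tested with limma on log2(FPKM + 1), and a gene is said to have risen or fallen where the Benjamini-Hochberg adjusted p over all 11395 genes tested was below 0.05. Log2 changes are knockout minus wild type, each given with its standard error (SE), and this scale understates the change of low genes. Zfp750 was at 1.53 to 2.68 FPKM in the knockouts, against 81.6 to 119 FPKM in the wild types. Of the keratinocyte markers, Krt5, Krt14, Lor, Ivl, Dsp and Dsg1a were well above the test's minimum in both genotypes, while Krt1 and Krt10 were listed at 0 in all libraries other than knockouts 1 and 2, which can be a failed estimate, and were not used. Of the 6 that were tested Krt14, the basal keratin, and Ivl, involucrin, rose, which is 33.3%, beside 15.7% of all genes tested. The smallest steps between values put the depths at about 10.7 to 15.8 M fragments (M is 1e6), an estimate from the table. Each title ends in a code of 11, 14 or 44 whose meaning the labels do not give: knockout 1 and wild type 4 carry 11, knockout 2 and wild type 3 carry 14, and the other 4 libraries carry 44.

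Of the 10 S100 genes, 4 rose in the knockout epidermis and 2 fell, while 4 did not pass the test. S100a9, S100a8, S100a10 and S100a13 rose, and S100a4 and S100a3 fell. Among all genes tested, 15.7% were called, made up of 6.72% higher and 8.94% lower. In 5 of the 10 genes the knockout and wild-type libraries did not overlap, 4 of them higher and 1 lower, and that held for 21.3% of all genes tested. The median log2 change of the 10 genes was 0.53, against 0.01 over all genes tested, and the median size of the change was 0.94 against 0.24.

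All 10 genes lie on chromosome 3 (GRCm38, the same build as mm10, with GENCODE M21 annotation). From S100a13 to S100a9 the run holds 8 of them, and S100a11 and S100a10 stand apart after a gap of 2824766 bases. In the run, genes that rose, fell and did not pass lie next to each other. S100a13 (chr3:90514435-90524581, plus strand) rose, while S100a14 (chr3:90526856-90528837, plus) and S100a16 (chr3:90537254-90543151, plus) did not pass. S100a3 (chr3:90560578-90602702, plus) and S100a4 (chr3:90603771-90606045, plus) are neighbours and both fell. S100a6 (chr3:90612882-90624181, plus) did not pass, and S100a8 (chr3:90668978-90670035, plus) and S100a9 (chr3:90692632-90695721, minus) rose. Beyond the gap, S100a11 (chr3:93520488-93526287, plus) did not pass and S100a10 (chr3:93555080-93564643, plus) rose.

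**Figure D1:**
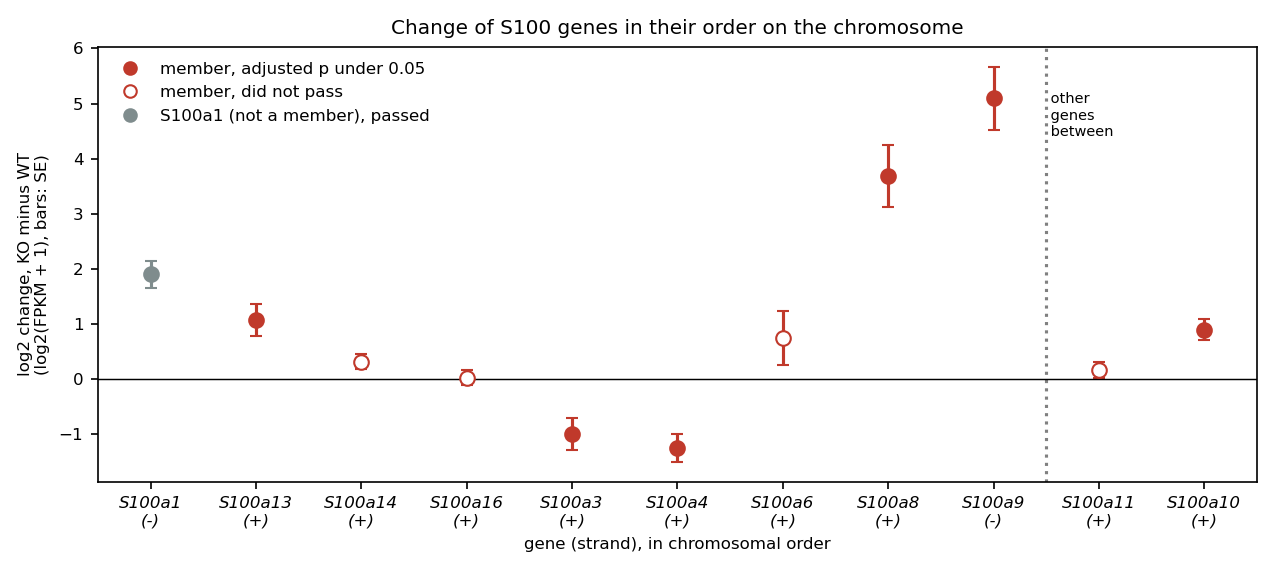
Log2 change (knockout minus wild type, on log2(FPKM + 1), vertical axis) of the 10 S100 genes and of their neighbour S100a1, in their order along the chromosome with the strand in brackets. Points are limma estimates and bars 1 SE. Filled points passed an adjusted p of 0.05, and the largest changes were 5.09 for S100a9 and 3.69 for S100a8, beside S100a6, S100a4 and S100a3 at 0.74, -1.25 and -0.99.

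Promoter windows of 300 bases (250 before the annotated start and 50 from it, RefSeq, GRCm38.p6) were available for 8 of the 10 genes and were not available for S100a10 and S100a14. The windows of the calprotectin pair, which rose together, of S100a4, which fell, and of S100a13, which rose beside a divergent neighbour, are printed 5′ to 3′ on the strand of the gene. Capitals mark matches to 4 motifs: AP-1 (TGANTCA), C/EBP (TTNNGNAA) and the motif described for ZNF750, the human ortholog of Zfp750 (CCNNAGGC), each read on both strands, and the TATA box (TATAAA) on the strand of the gene.
S100a8, chr3:90668821-90669120, plus strand: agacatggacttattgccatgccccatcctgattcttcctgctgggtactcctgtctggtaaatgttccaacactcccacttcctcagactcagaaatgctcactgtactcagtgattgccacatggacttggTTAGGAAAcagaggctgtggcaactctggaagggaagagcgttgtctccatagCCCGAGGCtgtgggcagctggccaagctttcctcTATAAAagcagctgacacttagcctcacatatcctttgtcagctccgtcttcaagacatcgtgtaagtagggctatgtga
S100a9, chr3:90695672-90695971, minus strand: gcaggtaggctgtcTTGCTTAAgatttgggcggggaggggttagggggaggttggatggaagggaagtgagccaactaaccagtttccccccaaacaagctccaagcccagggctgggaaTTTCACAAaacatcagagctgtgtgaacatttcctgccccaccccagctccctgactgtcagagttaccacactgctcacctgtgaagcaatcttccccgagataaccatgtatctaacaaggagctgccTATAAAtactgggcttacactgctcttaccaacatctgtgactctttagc
S100a4, chr3:90603520-90603819, plus strand: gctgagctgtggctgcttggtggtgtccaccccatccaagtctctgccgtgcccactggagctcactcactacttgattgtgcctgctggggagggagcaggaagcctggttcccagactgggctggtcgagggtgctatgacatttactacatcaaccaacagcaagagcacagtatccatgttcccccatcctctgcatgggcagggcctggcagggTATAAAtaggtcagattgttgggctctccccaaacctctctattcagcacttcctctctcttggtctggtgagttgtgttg
S100a13, chr3:90514185-90514484, plus strand: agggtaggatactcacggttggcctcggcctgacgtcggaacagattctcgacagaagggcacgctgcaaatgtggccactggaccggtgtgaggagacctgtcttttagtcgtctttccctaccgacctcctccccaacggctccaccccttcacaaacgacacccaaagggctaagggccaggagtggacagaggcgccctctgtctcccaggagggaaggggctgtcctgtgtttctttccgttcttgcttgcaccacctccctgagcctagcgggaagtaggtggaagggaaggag
In the S100a8 window a C/EBP match began at position -117, a ZNF750 match at -64 and a TATA match at -30, counted from the RefSeq start. The S100a9 window held C/EBP matches at -236 and -130 and a TATA match at 1, the start itself. The S100a4 window held a TATA match at -31. No match to the 4 motifs was found in the S100a13 and S100a6 windows. S100a11, which did not pass the test, had AP-1 matches at -136 and -38 and a ZNF750 match at -74. S100a16 and S100a3 have several annotated starts. Their windows held ZNF750 and AP-1 matches for S100a16 and C/EBP, ZNF750 and TATA matches for S100a3. Over 32851 promoter windows of this length, 40.7% held a C/EBP match, 24.1% a ZNF750 match, 8.3% a TATA match and 7.8% an AP-1 match. The matches did not overlap each other in the printed windows, and they are descriptions of letters, not of binding.

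S100a9, which encodes a subunit of calprotectin, was high in the knockout epidermis and low in the wild type, near the test's minimum of 1 FPKM. It measured 189, 182, 49.1 and 34.1 FPKM in knockout libraries 1 to 4, against 1.07, 0.850, 4.10 and 1.30 FPKM in wild-type libraries 1 to 4. Every knockout library was above every wild-type library, and knockouts 1 and 2 were well above knockouts 3 and 4. The mean was 113 ± 83.3 FPKM in the knockouts and 1.83 ± 1.52 FPKM in the wild types (SD, n = 4 each), a ratio of means of 62.0. Without wild type 3, the highest of its group, that ratio was 106. The log2 change was 5.09 ± 0.57 (SE), with a 95% interval of 3.81 to 6.38 and an adjusted p of 0.000374 (limma). By log2 change S100a9 held rank 4 among the 11395 genes tested.

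S100a8, the other subunit, was at 54.5, 72.2, 21.5 and 10.5 FPKM in knockout libraries 1 to 4, against 0.432, 1.5, 2.98 and 1.69 FPKM in wild-type libraries 1 to 4. Again the groups did not overlap, and knockouts 1 and 2 were the highest. The mean was 39.7 ± 28.6 FPKM in the knockouts and 1.65 ± 1.05 FPKM in the wild types (SD, n = 4 each), a ratio of means of 24. The log2 change was 3.69 ± 0.55 (SE, 95% interval 2.44 to 4.93, adjusted p = 0.00202 by limma), which put S100a8 at rank 16. In bulk tissue, more cells of a type and more RNA per cell cannot be told apart. The wild-type values rest on few molecules, since the estimated depths put about 56.1 to 375 fragments on S100a8 in the knockouts, against 3.3 to 17.7 in the wild types, and 194 to 1073 on S100a9 in the knockouts, against 5.2 to 25.8 in the wild types.

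Within a library, S100a8 was the lower of the pair in every knockout. The ratio of S100a8 to S100a9 was 0.288, 0.398, 0.438 and 0.307 in knockout libraries 1 to 4, against 0.402, 1.76, 0.728 and 1.30 in wild-type libraries 1 to 4. The mean log2 ratio differed by -1.36 between knockouts and wild types, but the groups overlapped and the difference did not pass (exact permutation test over 70 assignments, two-sided, p = 0.0571, adjusted over 3 ratios 0.0571). With 1 FPKM added to both genes the difference was -1.41 (exact permutation p = 0.0286), the smallest p that 4 against 4 libraries can give. Such an addition draws the ratios of genes as low as these in the wild types towards 1. That p is therefore no sign of a shift between the subunits.

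In the knockouts the calprotectin genes differed by title code, and in the wild types the order was the same at low levels near the test's minimum. The libraries with codes 11 and 14 averaged 4.45 times the level of those with code 44 for S100a9 in the knockouts and 2.81 times in the wild types. For S100a8 these ratios were 3.96 among knockouts and 2.42 among wild types. The wild-type ratios turn on single libraries: that of S100a9 was 1.35 without wild type 3 and 4.26 without wild type 4, and that of S100a8 was 1.56 without wild type 1 and 5.41 without wild type 2. The summed level of 5 endothelial and blood cell genes, mostly the beta globin Hbb-bs, was 42.9, 145, 7.58 and 8.71 FPKM in knockout libraries 1 to 4, against 10.6 to 33.8 FPKM in the wild types, with none of the 3 tested genes passing. Its part in the level of S100a8 and S100a9 was not tested. The genotype difference had the same direction within each code. Codes 11 and 14 hold only 1 knockout and 1 wild type each, so their differences have no measure of spread. On the log2(FPKM + 1) scale S100a9 differed between knockout and wild type by 6.37 within code 11, 5.16 within code 14 and 4.42 within code 44, and S100a8 by 4.37, 4.2 and 3.09. A test of the difference between codes, added after the values were seen, gave -1.34 ± 0.49 (SE) for S100a9 in code 44 against the other codes (limma, unadjusted p = 0.0248, adjusted p = 0.26), and no gene in the table passed, with 1771 at an unadjusted p below 0.05.

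**Figure D2:**
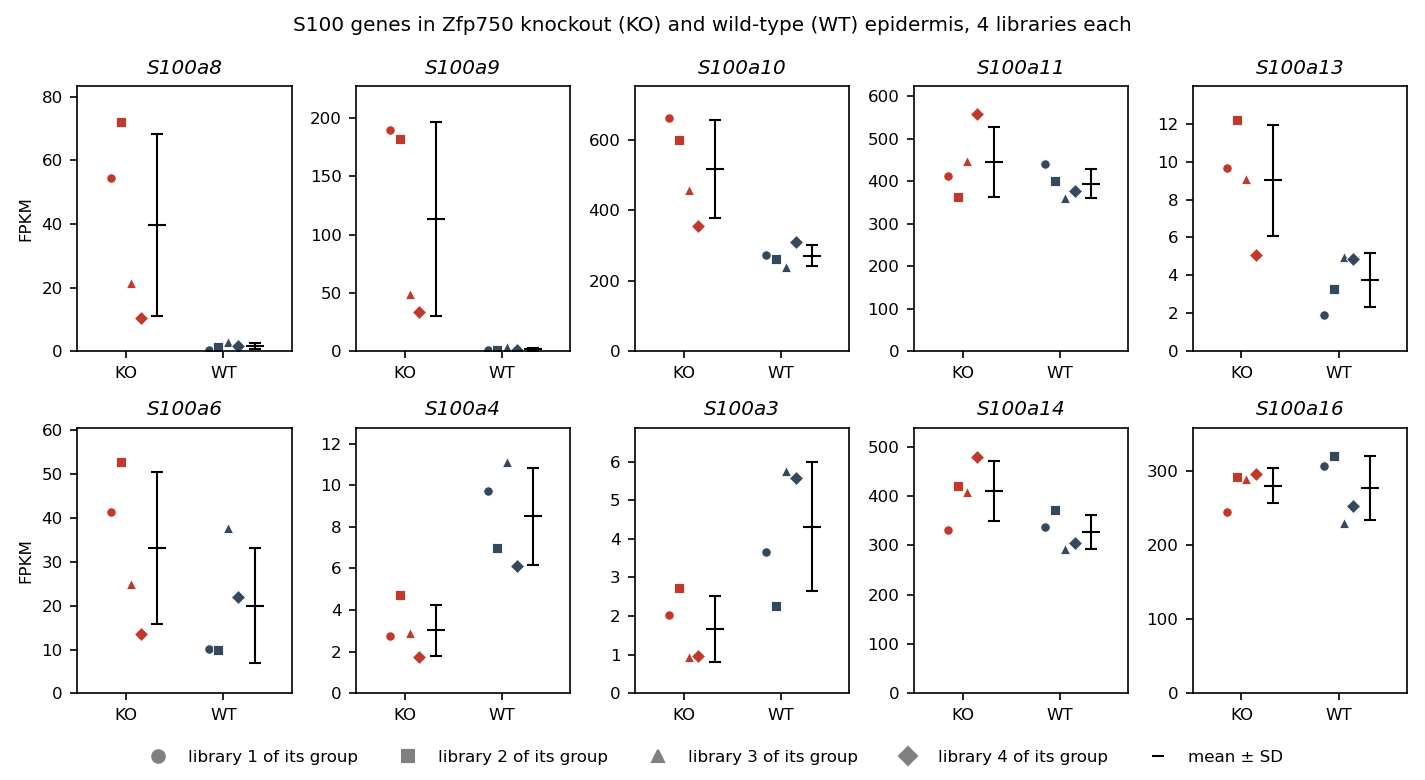
FPKM of each of the 10 S100 genes (vertical axes, each from 0) in 4 knockout (KO) and 4 wild-type (WT) libraries, with the mean and SD beside the points and marker shapes for library 1 to 4 of each group. The knockout points lie wholly above the wild-type points for S100a8, S100a9, S100a10 and S100a13 and wholly below them for S100a4.

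Neutrophils are the best-known source of calprotectin. Their markers Ly6g, Elane, Ltf, Csf3r, Retnlg and Mmp8 had no row, so the level of these is not known. Of 18 neutrophil markers 12 had a row in the table, and their summed level was 13.1 to 18.0 FPKM in the knockouts, against 22.1 to 59.8 FPKM in the wild types. Of the 4 that could be tested 3 fell, which is 75.0%, beside 15.7% of all genes tested. But 2 of the 4, Fcgr3 and Lyz2, were below 1 FPKM in every knockout and so met the minimum for the test through the wild types alone. Cxcr2, Mmp9 and Prtn3, named after their values were seen, were too low to test, at 0.596, 0.168 and 0.258 FPKM on average in the knockouts, against 0.325, 0.0315 and 0.115 FPKM in the wild types. Itgam, an integrin of myeloid cells, was at 1.08 ± 0.0410 FPKM in the knockouts and 3.63 ± 0.311 FPKM in the wild types (log2 change -1.15 ± 0.13, adjusted p = 0.000355, limma, n = 4 each). Fcgr3, a receptor for antibodies, was lower by 1.57, and Lyz2, the lysozyme of myeloid cells, by 1.32 on the log2 scale. Having met the minimum through the wild types alone, these 2 could hardly be called other than lower, so no p is given for them. Mpo, the granule peroxidase, and Camp, an antimicrobial peptide, averaged 0.115 and 0.0466 FPKM in the knockouts, and all wild types lacked a value for both. Ngp, another granule protein, averaged 0.139 FPKM in the knockouts and 0.147 FPKM in the wild types. Most of the summed level was Il1r2, a decoy receptor for interleukin-1, at 11.7 ± 1.35 FPKM in the knockouts and 25.4 ± 13.4 FPKM in the wild types (log2 change -0.93, adjusted p = 0.0601). In the macrophage and dendritic cell list 17 of 19 genes had a row, with sums of 10.5 to 18.8 FPKM in the knockouts against 89.3 to 143 FPKM in the wild types. Of its 13 tested genes 11 fell, which is 84.6%, beside 15.7% of all genes tested, but 5 of the 13 were below 1 FPKM in every knockout. All 11 reached 1 FPKM in every wild type, and none of them did so in every knockout. They thus met the minimum through the wild types, where they were high, so that share was partly set by the filter.

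**Figure D3:**
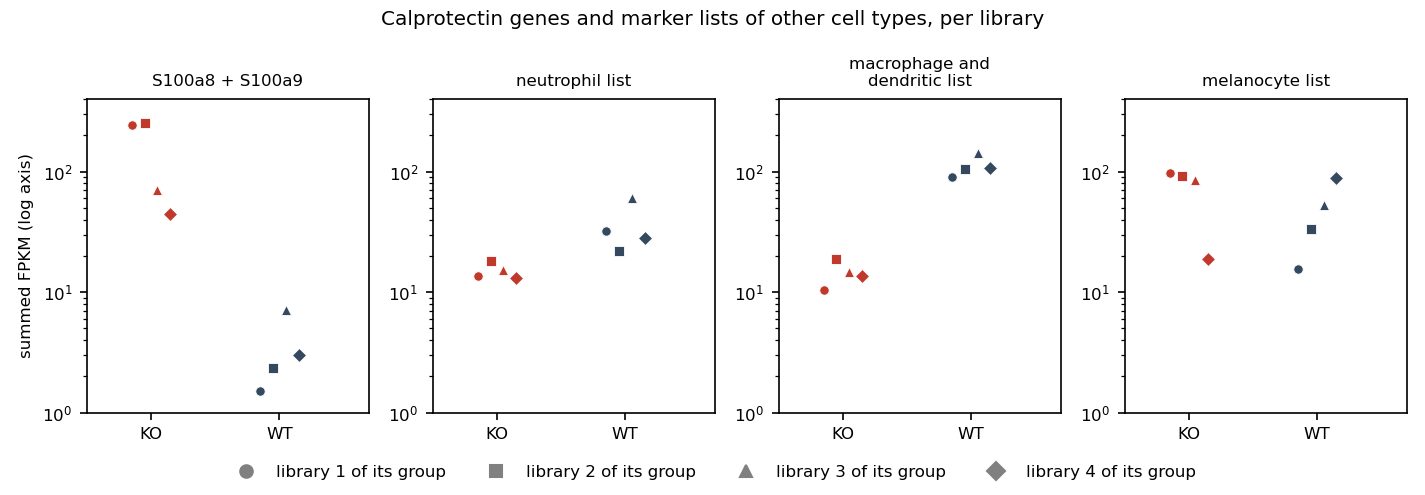
Summed FPKM (log axis) per library of S100a8 and S100a9 and of the marker lists of neutrophils, of macrophages and dendritic cells and of melanocytes, in knockout (KO) and wild-type (WT) libraries. S100a8 and S100a9 together run from 44.6 to 254 FPKM in the knockouts and from 1.51 to 7.08 FPKM in the wild types. The sums of both myeloid lists are lower in the knockouts. Most of the neutrophil sum is Il1r2, and neutrophil markers too low to test went in both directions. The melanocyte list is lowest in knockout 4 and in wild types 1 and 2.

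The inducers and companions of calprotectin in stressed keratinocytes were a list of 30 genes, of which 27 had a row and 19 were tested. Of these, 7 rose, none fell and 12 did not pass, and the median log2 change was 1.03. The share called was 36.8%, beside 15.7% of all genes tested called and 6.72% called higher. The list was chosen with earlier results of these data known. Il36a, an interleukin-1 family cytokine of keratinocytes given under its older symbol Il1f6, was at 83.4, 101, 104 and 105 FPKM in knockout libraries 1 to 4, against 28.1, 25.8, 29.2 and 28.6 FPKM in wild-type libraries 1 to 4 (log2 change 1.77 ± 0.11, adjusted p = 1.29e-05, limma). Unlike S100a9, its level was nearly the same in all 4 knockouts. Ccl20, a chemokine, rose by 3.12 ± 0.50 (SE) on the log2 scale (adjusted p = 0.00303). Krt6b, a keratin of wounded skin, rose by 2.56 ± 0.55 (adjusted p = 0.0122). Its groups overlapped, with knockout 4 at 36.2 FPKM and wild type 3 at 42.0 FPKM. Slpi, a protease inhibitor, rose by 2.95 ± 0.73 (adjusted p = 0.024). The other risers, named after their values were seen, were Tnf, Cxcl1 and Il36g, with log2 changes of 2.12, 3.54 and 1.03. Transcription factors known to act on the calprotectin genes, also named after their values were seen, did not pass: Cebpb had a log2 change of -0.23 ± 0.20 (adjusted p = 0.502), Cebpd of 0.81 ± 0.41 (adjusted p = 0.234) and Stat3 of 0.36 ± 0.12 (adjusted p = 0.0826).

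Some genes of that list were below the level for a test and are given per library, named after their values were seen. Il6, an inflammatory cytokine, was at 8.11, 9.22, 0.947 and 0.110 FPKM in knockout libraries 1 to 4 and had no value in the wild types. Il24 was at 17.5 and 23.4 FPKM in knockouts 1 and 2, at 0.0930 FPKM in knockout 4 and had no value in knockout 3, against at most 0.432 FPKM in the wild types. Both were high in the knockouts in which S100a8 and S100a9 were highest. Lcn2, a neutrophil and keratinocyte protein that binds iron carriers, was at 0.648 to 2.71 FPKM in the knockouts, against at most 0.190 FPKM in the wild types.

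Of 14 genes for receptors and the export of S100 proteins 12 had a row and 8 were tested, of which 1 rose, 2 fell and 5 did not pass. That is 37.5%, beside 15.7% of all genes tested, and 1 of the 8 met the minimum through the wild types alone. Arrb1, an adaptor of G-protein-coupled receptors, rose by 1.22 ± 0.15 (SE, adjusted p = 0.000544, limma). Cd14, the partner of Tlr4 on myeloid cells, averaged 0.576 ± 0.276 FPKM in the knockouts and 2.83 ± 0.252 FPKM in the wild types (SD, n = 4 each), lower by 1.30 on the log2 scale. Cd14 was the gene that met the minimum through the wild types alone, so no p is given for it. Emb, a membrane protein of the Bsg family, fell by 0.81 (adjusted p = 0.0395). The classical calprotectin receptors were too low to be tested: Tlr4 averaged 0.0390 FPKM in the knockouts and 0.267 FPKM in the wild types, and Ager, which encodes RAGE, averaged 1.11 FPKM in the knockouts and 0.544 FPKM in the wild types. Bsg, a reported receptor of S100A9, was abundant at 142 ± 13 FPKM in the knockouts and 134 ± 12.7 FPKM in the wild types, with a log2 change of 0.09 that did not pass (adjusted p = 0.651).

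S100a10, which binds annexin A2 and has lost calcium binding, had the highest mean of the 10 genes in the knockouts, although its range overlapped that of S100a11 and it was below S100a11 and S100a14 in knockout 4. It measured 664, 599, 458 and 355 FPKM in knockout libraries 1 to 4, against 272, 262, 240 and 312 FPKM in wild-type libraries 1 to 4. All knockouts lay above all wild types, with knockout 4 the closest. The mean was 519 ± 139 FPKM in the knockouts and 271 ± 30.1 FPKM in the wild types (SD, n = 4 each), and the log2 change was 0.90 ± 0.20 (SE, 95% interval 0.46 to 1.34, adjusted p = 0.0134, limma). The call was lost within code 44 alone (0.59, adjusted p = 0.0772) and with Xist as a covariate (0.80, adjusted p = 0.0736). Xist, an RNA of female cells, was at 84.6 to 150 FPKM in knockouts 1 to 3 and wild type 3 and at most 1.84 FPKM in the other libraries.

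Anxa2, the annexin that pairs with S100a10, averaged 553 ± 83.5 FPKM in the knockouts and 560 ± 43.1 FPKM in the wild types, with a log2 change of -0.03 ± 0.14 (adjusted p = 0.923, limma, n = 4 each). The ratio of S100a10 to Anxa2 was 1.04, 0.994, 0.877 and 0.787 in knockout libraries 1 to 4, against 0.503, 0.516, 0.402 and 0.524 in wild-type libraries 1 to 4. The groups did not overlap, and the log2 ratio was 0.93 higher in the knockouts (exact permutation test, two-sided, p = 0.0286, adjusted over 3 ratios 0.0429). Within the title codes the same difference gave an exact p of 0.0833, the smallest that swaps within codes can give. Ahnak, a giant scaffold protein bound by the S100a10 and Anxa2 complex, averaged 394 FPKM in the knockouts and 470 FPKM in the wild types (log2 change -0.26 ± 0.13, adjusted p = 0.239).

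S100a11, which binds annexin A1 and is built into the cornified envelope, was among the most abundant genes in both genotypes. It measured 413, 363, 448 and 557 FPKM in knockout libraries 1 to 4, against 440, 401, 360 and 377 FPKM in wild-type libraries 1 to 4. The groups overlapped, and the log2 change of 0.16 ± 0.15 did not pass (95% interval -0.17 to 0.49, adjusted p = 0.524, limma). Its partner Anxa1 averaged 332 ± 56.5 FPKM in the knockouts and 538 ± 111 FPKM in the wild types (SD, n = 4 each) and fell by 0.69 on the log2 scale (adjusted p = 0.027). The ratio of S100a11 to Anxa1 was 1.05, 0.987, 1.57 and 1.98 in knockout libraries 1 to 4, against 0.633, 0.758, 0.724 and 0.869 in wild-type libraries 1 to 4. These did not overlap, and the log2 ratio was 0.85 higher in the knockouts (exact permutation test, two-sided, p = 0.0286, adjusted over 3 ratios 0.0429, and 0.0833 within the title codes, again the smallest possible).

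Of 12 tested annexins and annexin partners, 1 rose, 2 fell and 9 did not pass, with a median log2 change of -0.12. The share called was 25.0%, beside 15.7% of all genes tested. Anxa8, an annexin of stratified epithelia, rose to 359 ± 65.6 FPKM in the knockouts, against 201 ± 19.3 FPKM in the wild types (log2 change 0.82 ± 0.15, adjusted p = 0.00535, limma, n = 4 each). Anxa9 fell by 0.58 (adjusted p = 0.0421). Anxa11, known to bind S100A6, had a log2 change of -0.37 ± 0.26 that did not pass (adjusted p = 0.4).

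**Figure D4:**
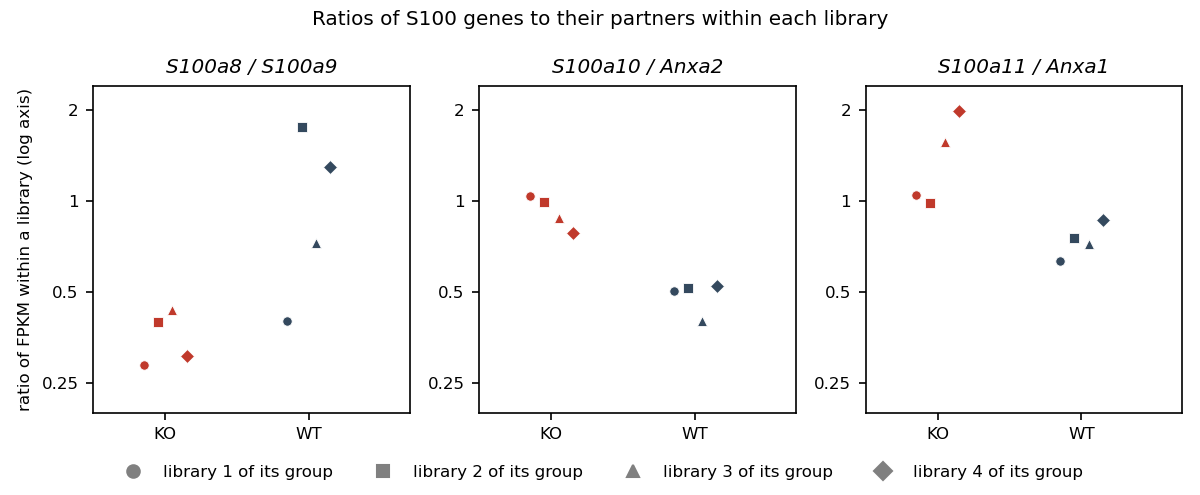
Ratio of FPKM within each library (log axis) of S100a8 to S100a9, of S100a10 to Anxa2 and of S100a11 to Anxa1 in 4 knockout (KO) and 4 wild-type (WT) libraries. The ratios to the annexins lie higher in all knockouts, at 0.787 to 1.04 in KO against 0.402 to 0.524 in WT for S100a10 and at 0.987 to 1.98 in KO against 0.633 to 0.869 in WT for S100a11, while the S100a8 to S100a9 ratio overlaps.

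S100a13, which takes part in the release of Fgf1 and Il1a by a route that bypasses the secretory pathway, was a low gene that rose. It measured 9.67, 12.2, 9.07 and 5.09 FPKM in knockout libraries 1 to 4, against 1.93, 3.28, 4.95 and 4.85 FPKM in wild-type libraries 1 to 4. The groups did not overlap, but knockout 4 was only just above wild types 3 and 4. The log2 change was 1.08 ± 0.29 (SE, 95% interval 0.43 to 1.73, adjusted p = 0.0339, limma). The adjusted p rose to 0.0819, 0.0935, 0.0833, 0.084 and 0.0868 without knockout 1, knockout 2, knockout 3, wild type 1 or wild type 2, and to 0.199 with Xist as a covariate. Its cargoes did not pass: Fgf1 averaged 5.65 FPKM in the knockouts and 3.63 FPKM in the wild types (log2 change 0.48, adjusted p = 0.369), and Il1a 20.7 FPKM in the knockouts and 19.2 FPKM in the wild types (log2 change 0.07, adjusted p = 0.922).

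S100a1, which is not one of the 10 genes, lies 42 bases from S100a13 on the opposite strand, and its RefSeq promoter window overlaps the S100a13 window printed above. It measured 10.6, 14.5, 18.8 and 19.3 FPKM in knockout libraries 1 to 4, against 3.02, 2.13, 4.00 and 4.91 FPKM in wild-type libraries 1 to 4, and rose by 1.90 ± 0.24 (adjusted p = 0.000779, limma). Both neighbours rose, but within the knockouts S100a1 was higher in knockouts 3 and 4 and S100a13 in knockouts 1 and 2. S100a7a, between S100a6 and S100a8 on the chromosome, was too low to test, at 1.35, 2.84, 0.184 and 0.126 FPKM in knockout libraries 1 to 4 and at most 1.14 FPKM in the wild types.

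S100a4, a binder of non-muscle myosin that is typical of fibroblasts and white blood cells, fell. It measured 2.76, 4.72, 2.91 and 1.76 FPKM in knockout libraries 1 to 4, against 9.74, 7.01, 11.1 and 6.13 FPKM in wild-type libraries 1 to 4. Every knockout was below every wild type. The mean was 3.03 ± 1.23 FPKM in the knockouts and 8.5 ± 2.33 FPKM in the wild types (SD, n = 4 each), and the log2 change was -1.25 ± 0.25 (SE, 95% interval -1.81 to -0.69, adjusted p = 0.00884, limma). The macrophage and dendritic cell list described above was lower in the same libraries, and its part in the fall of S100a4 was not tested. Of 10 tested fibroblast genes none passed in either direction, and their sums were 107 to 468 FPKM in the knockouts and 148 to 371 FPKM in the wild types. The call was lost within codes 11 and 14 alone (-1.0, adjusted p = 0.0747) and without knockout 4, wild type 1 and wild type 2 together (-1.09, adjusted p = 0.0577), a setting added after the values were seen.

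S100a3, which binds zinc and is known from the cuticle of hair, fell close to the threshold. It measured 2.02, 2.73, 0.952 and 0.978 FPKM in knockout libraries 1 to 4, against 3.66, 2.26, 5.76 and 5.58 FPKM in wild-type libraries 1 to 4. The groups overlapped, since knockout 2 was above wild type 2, and in both genotypes the libraries with code 44 were the lowest. The log2 change was -0.99 ± 0.29 (SE, 95% interval -1.65 to -0.33, adjusted p = 0.0498, limma). The call was lost without knockout 1, 3 or 4 (adjusted p = 0.0736, 0.128 and 0.0734) and without wild type 1, 3 or 4 (adjusted p = 0.0944, 0.116 and 0.112). With array weights the change was -0.57 (adjusted p = 0.14), and with the title code as a block it was -0.99 ± 0.17 (adjusted p = 0.00353). S100a3 and S100a4 share exons with the read-through model Gm42674, with exact matches of 146 and 302 bases, so how the authors' counting split their reads is uncertain.

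Most tested genes of the hair cuticle and follicle did not pass. Of 13 tested, 1 rose and 2 fell, which is 23.1% beside 15.7% of all genes tested. Tchh, trichohyalin, a large protein of the inner root sheath with an S100-like part, rose to 437 ± 151 FPKM in the knockouts, against 26.5 ± 6.27 FPKM in the wild types (log2 change 3.95 ± 0.27, adjusted p = 2.16e-05, limma, n = 4 each). Padi1, an enzyme that converts arginine to citrulline, fell by 1.95 (adjusted p = 0.000103), and the hair keratin Krt32 fell by 0.56 (adjusted p = 0.047). Padi3, the enzyme known to act on human S100A3, was too low to test, at 0.0864 FPKM in the knockouts and 0.952 FPKM in the wild types.

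S100a6, also called calcyclin and common in dividing cells, varied with the title codes within both genotypes. It measured 41.3, 52.7, 25.0 and 13.5 FPKM in knockout libraries 1 to 4, against 10.2, 9.87, 37.8 and 22.0 FPKM in wild-type libraries 1 to 4. The groups overlapped, and in both genotypes the libraries with codes 11 and 14 were above those with code 44, by 2.44 times in the knockouts and 2.97 times in the wild types. The log2 change of 0.74 ± 0.49 did not pass (SE, 95% interval -0.36 to 1.85, adjusted p = 0.37, limma). With the title code as a block it was 0.74 ± 0.18 with an adjusted p of 0.0204, and the differences within codes 11, 14 and 44 were 0.88, 0.47 and 0.81. The summed level of 8 melanocyte genes, none of which passed, was 97.7, 91.8, 85.4 and 19 FPKM in knockout libraries 1 to 4, against 15.4, 33.3, 52.3 and 88.8 FPKM in wild-type libraries 1 to 4. It was low in knockout 4 and wild types 1 and 2, where S100a6 was low too. Other genes were low in the same libraries: the fibroblast sum was 312, 468, 303 and 107 FPKM in knockout libraries 1 to 4, against 148, 191, 300 and 371 FPKM in wild-type libraries 1 to 4. Krt14 was at 3330, 2202, 2758 and 1112 FPKM in knockout libraries 1 to 4, against 417, 613, 1215 and 1253 FPKM in wild-type libraries 1 to 4 (log2 change 1.46 ± 0.43, adjusted p = 0.0464, limma). The part of these cells in the result was not tested. With Xist as a covariate the log2 change of S100a6 was -0.11 (adjusted p = 0.911), and with array weights 1.47 (adjusted p = 0.0192). Without knockout 4, wild type 1 and wild type 2 it was 0.38 ± 0.34 (adjusted p = 0.532), a setting added after the values were seen. S100a6 itself was lowest of its group in those libraries, so that value depends on the choice and does not test the part of these cells.

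S100a14, an epithelial S100 protein, was somewhat higher in the knockouts without passing the test. It measured 331, 420, 409 and 480 FPKM in knockout libraries 1 to 4, against 338, 371, 294 and 305 FPKM in wild-type libraries 1 to 4. Knockout 1 lay among the wild types. The log2 change was 0.32 ± 0.14 (SE, adjusted p = 0.169, limma), with a 95% interval, not adjusted for the number of genes, of 0.005 to 0.634.

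S100a16, a widely expressed S100 protein, was at 244, 292, 289 and 296 FPKM in knockout libraries 1 to 4, against 306, 321, 230 and 253 FPKM in wild-type libraries 1 to 4. The knockout range lay inside the wild-type range, and the log2 change was 0.03 ± 0.14 (SE, 95% interval -0.28 to 0.33, adjusted p = 0.928, limma). The interval bounds the change but does not show that the level was equal.

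Summed over the 10 genes, the S100 level was 1951, 2001, 1713 and 1753 FPKM in knockout libraries 1 to 4, against 1383, 1379, 1190 and 1287 FPKM in wild-type libraries 1 to 4. S100a8 and S100a9 made up 12.5%, 12.7%, 4.12% and 2.54% of that sum in knockout libraries 1 to 4, against 0.109% to 0.595% in the wild types. The makeup of the family therefore differed most in knockouts 1 and 2. S100a10, S100a11, S100a14 and S100a16 together made up 83.7% to 96.2% in the knockouts and 94.4% to 98.2% in the wild types.

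In order of mean FPKM, the knockouts ran S100a10, S100a11, S100a14, S100a16, S100a9, S100a8, S100a6, S100a13, S100a4 and S100a3. The ranges of neighbours in that order were apart between S100a14 and S100a16, between S100a16 and S100a9, between S100a6 and S100a13 and between S100a13 and S100a4, and overlapped elsewhere. The wild types ran S100a11, S100a14, S100a16, S100a10, S100a6, S100a4, S100a3, S100a13, S100a9 and S100a8, with neighbours apart between S100a10 and S100a6 and between S100a4 and S100a3 only. S100a9 thus held place 5 in the knockouts and place 9 in the wild types.

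Likeness of pattern was measured as the root mean square difference (RMS) of log2(FPKM + 1), centred on each gene's mean, over the 8 libraries. The gene most like S100a9 was Epgn, a ligand of the EGF receptor, with an RMS of 0.54. Epgn was at 119, 86.5, 21.5 and 11.5 FPKM in knockout libraries 1 to 4, against 0.450 to 1.83 FPKM in the wild types. S100a8 came next with an RMS of 0.78, then the tight junction gene Cldn7 with 1.0, Ccl20 with 1.06 and the peroxidase gene Lpo with 1.09. For S100a8 the order was Ccl20 (RMS 0.56), Epgn (0.56), 1600029D21Rik (0.65), Cldn7 (0.71) and S100a9 (0.78). Among the nearest to S100a3 were Fxyd6 (0.23), Acadl (0.24), Usp38 (0.25) and Sfpi1 (0.27), the last an older symbol for a transcription factor of myeloid cells. Nearest to S100a14 were Nudt12, Rangap1, Srebf1, Zbtb7b and Acot8, with an RMS between 0.04 and 0.08. Among the 45 pairs of the 10 genes, S100a14 and S100a16 were the most alike (0.17), ahead of S100a11 and S100a14 (0.18) and of S100a11 and S100a16 (0.19). Low genes and genes that change little have small differences on this scale, so these values order genes and carry no test.

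**Figure D5:**
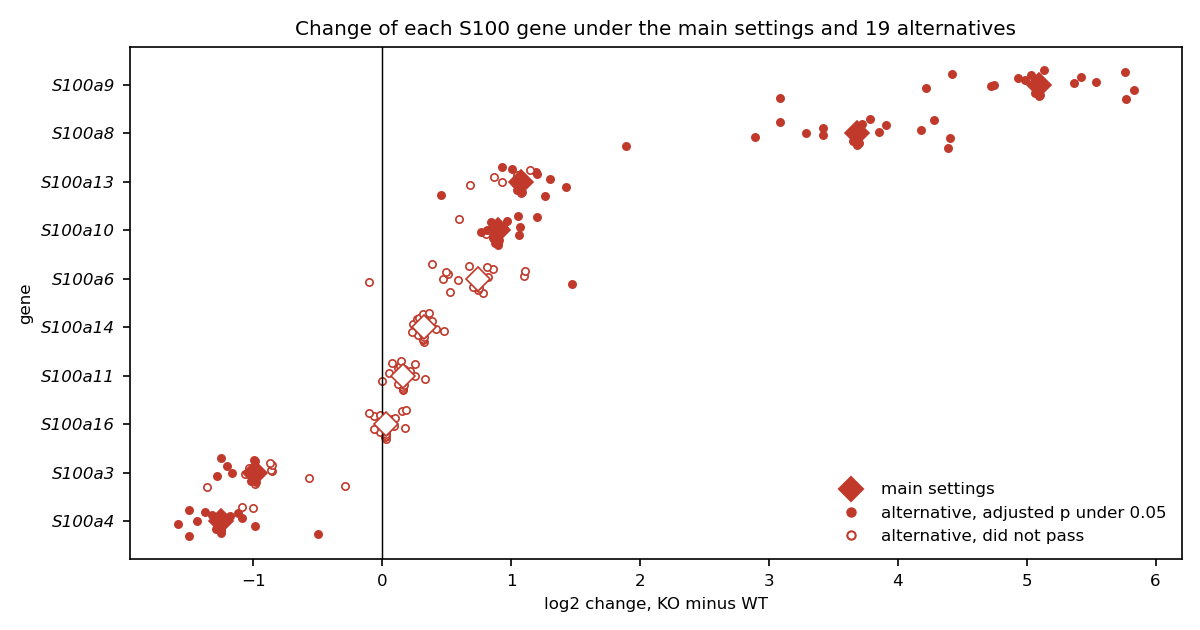
Log2 change (knockout minus wild type, horizontal axis) of each of the 10 S100 genes under the main settings (diamonds) and under the other settings of the fit (circles), with filled marks for an adjusted p below 0.05. S100a9 and S100a8 are filled throughout, at 3.09 to 5.83 and 1.89 to 4.40, and S100a11, S100a14 and S100a16 are open throughout, between -0.1 and 0.47.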

How the data were processed

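Total RNA from newborn mouse epidermis had been depleted of ribosomal RNA and sequenced as stranded paired-end libraries, per the labels' protocols. The deposited table holds FPKM values made by the authors, 1 per gene symbol and library, with no read counts. Per the submitters' processing notes, reads were placed on mm10. Which aligner and quantifier were run, and whether strand was used, were not given in the sources used here.

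Groups came from the genotype label. Missing values, present for 2029 of 15995 genes, were taken as 0. Krt1, Krt10, Flg2 and Rn45s, listed at 0 in some libraries and very high in others, were left out. The 11395 genes with at least 1 FPKM in at least 4 libraries were transformed to log2(FPKM + 1) and compared by genotype with limma (version 3.58.1, R 4.3.3, mean-variance trend), after a check on simulated data. Intervals use limma's degrees of freedom. Ratios within libraries were compared by exact permutation tests (scipy 1.17.1). Depth was estimated from the smallest steps of FPKM times transcript length, so fragment numbers are approximate and no counting interval is given. Coordinates come from GENCODE M21, and promoter sequences from RefSeq (GRCm38.p6).

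The title codes were used to match knockout and wild-type libraries. Deviations from the group means correlated by 0.389 within code 11, 0.238 within code 14 and 0.426 within code 44. Deviations cancel out within a group, so these values are not independent of each other. The codes come from the sample titles and their meaning is not stated, and knockout 2 also correlated with wild type 4 (0.147) and knockout 1 with wild type 3 (0.202). The values thus set code 44 apart, and separate codes 11 and 14 from each other less clearly.

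The 10 genes and the gene lists were chosen with earlier results of these data known. The text names the 10 genes, the up to 4 tested genes of smallest p in a list, known binding partners and defining markers, and the genes nearest in pattern to 4 of them, of which 1 neighbour is not reported here. Other genes are said to be named after their values were seen. Older symbols were matched through RefSeq synonyms. Settings of scaling, pseudocount, filter, block, covariate and left-out libraries were varied.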

Additional observations from a re-analysis of the deposited data

Results flagged for a closer look

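In 26 groups of 4 values the gap between the most extreme library and its nearest neighbour was set against the range of the group, a comparison that chance alone passes in about 1 group in 20. The first of 3 values that stood out was S100a9 in wild type 3, at 4.10 FPKM against 0.850 to 1.30 FPKM in the other wild types (gap over range 0.861). S100a16 in knockout 1 was low, at 244 FPKM against 289 to 296 FPKM in the other knockouts (0.87). The log2 ratio of S100a10 to Anxa2 was low in wild type 3, a ratio of 0.402 against 0.503 to 0.524 in the other wild types (0.845).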

How the results depend on the processing

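The number of S100 genes called was 6 under the main settings, 3 within code 44 alone (S100a4, S100a8 and S100a9), 7 with the title code as a replicate block, and 4 to 5 when 1 library was left out. Of 19 alternatives with an adjusted p, S100a8 and S100a9 passed in all 19, S100a4 and S100a10 in 17, S100a13 in 11, S100a3 in 8 and S100a6 in 2, and S100a11, S100a14 and S100a16 in none. By an exact permutation test without adjustment, S100a8, S100a9, S100a10, S100a13 and S100a4 had p = 0.0286, the smallest possible, and S100a3 0.0571. S100a6 passed with the block (0.74, adjusted p = 0.0204) and with array weights (1.47, adjusted p = 0.0192). Besides S100a6, the block changed no call. Some changes that did not pass went below 0: S100a6 with Xist as a covariate (-0.106), S100a11 with array weights (-0.004), and S100a16 with array weights (-0.061), with upper-quartile scaling (-0.018) and within code 44 alone (-0.1), while with 1 library left out S100a16 ran from -0.061 to 0.099. The cause was not tested. The S100a8 to S100a9 ratio differed by -1.408 with 1 FPKM added (exact permutation p = 0.0286). In the wild types both genes were low, and the addition draws their ratios there towards 1. It differed by -1.75 to -1.04 with 1 library left out. With 1 library left out the S100a10 to Anxa2 difference was 0.839 to 1.002 and the S100a11 to Anxa1 difference 0.665 to 0.999, at exact p = 0.0571, the smallest that 4 against 3 libraries can give. Within the title codes they were 0.927 and 0.852, at an exact p of 0.0833, the smallest possible, and the S100a8 to S100a9 difference had p = 0.167. Over all genes 1785 were called, against 3669 with array weights, 1141 with Xist as a covariate, 1123 without wild type 1 and 1032 without knockout 4, wild type 1 and wild type 2. Few fragments limit the precision of S100a3 in both genotypes, of S100a4 in the knockouts and of S100a8, S100a9 and S100a13 in the wild types.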
